A study of Homo sapiens with 2 samples.

Results

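This report describes 43 genes for proteases that cut the extracellular matrix, their inhibitors and close partners, out of 19775 genes that the arrays read by at least 1 unshared probe set. They are listed by gene symbol and grouped by function, and the list was drawn up with earlier results of these arrays known: matrix metalloproteinases (MMPs), ADAMTS and ADAM proteases, the plasminogen system, tissue inhibitors of metalloproteinases (TIMPs), serpins and cathepsins. Every probe set that the platform annotation gives to 1 of these genes alone was read, 100 in all, and all 43 genes had at least 1. Affymetrix arrays were hybridised with RNA from the human embryonic stem cell line HUES9 at passage 32, differentiated as embryoid bodies (floating aggregates of stem cells) for 10 days and then grown out on fibronectin in a chemically defined medium. The SB-OG cells were kept in SB-431542, a drug that blocks the kinase activity of the type I receptors used by TGF-β, by activin and by nodal, with 10 µM given to the embryoid bodies and 1 µM to the outgrowth. The control-OG cells received the solvent DMSO at 0.01%. Outgrowth passage 5 was sampled. For each condition 3 samples were mixed and read on 1 array, so no difference below has a replicate check, an error or a p-value. All cells came from 1 cell line, and both groups are outgrowths of mixed cell types.

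Matrix proteases are made as inactive precursors and act on collagens, proteoglycans and adhesion proteins. MMPs and ADAMTS enzymes are zinc proteases that cut collagens and proteoglycans, and ADAMs are membrane-bound relatives that release ligands and receptors from the cell surface. TIMPs block the active site of these enzymes. In the plasminogen system, urokinase (PLAU) bound to its receptor (PLAUR) and tissue plasminogen activator (PLAT) turn plasminogen into plasmin, which can activate precursors of MMPs, while serpins trap the activators. Several of these genes are known TGF-β responders in fibroblasts, and muscle cells use several of them when they migrate and fuse.

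The values are probe set intensities on a linear scale, and a gene is given by its brightest probe set, ranked by the mean of its log2 values on the 2 arrays. A gene counts as above background when it exceeded the 95th percentile of 213 probe sets that read genes assumed to be silent in these cells, 27.6 on the SB-OG array and 32.6 on the control-OG array. Values under that level were raised to it before a log2 difference (SB-OG minus control-OG) was taken, so where 1 array alone exceeded background the fold is a lower bound, written "at least". Probe sets of 1 gene gave log2 differences that varied with an SD of 0.46 over 4930 genes, a spread between probe sets within this pair of arrays. It was taken from probe sets above background on both arrays, so it does not cover dimmer ones and is not a replicate error. The ratio of 3′ to 5′ signal was 0.958 on SB-OG and 0.995 on control-OG for GAPDH, and 1.55 on SB-OG and 1.65 on control-OG for ACTB. Of the 8 skeletal muscle markers listed, 8 were higher in SB-OG by 2-fold or more, with summed intensities of 38935 on SB-OG and 323 on control-OG. Of the 8 fibroblast markers, 8 were at least 2-fold lower, with sums of 30942 on SB-OG and 85347 on control-OG. Of 6 simple epithelial markers, 3 were lower by 2-fold or more and 1 was higher, with sums of 461 on SB-OG and 16527 on control-OG, and EPCAM and CLDN4 were not above background. Of 6 endothelial markers, 3 were lower and none higher, with sums of 143 on SB-OG and 2048 on control-OG, and CDH5 and VWF were not above background. Of 6 macrophage and osteoclast markers read, CD14 alone was above background by its brightest probe set, at 1.79 on SB-OG and 216 on control-OG. PTPRC was above it by 2 dimmer probe sets of 5. The sums of the 6 were 45.3 on SB-OG and 288 on control-OG. Of 5 pluripotency markers read, SOX2 alone was above background by its brightest probe set, on SB-OG, and the sums were 188 on SB-OG and 62.0 on control-OG. The part of these cell mixtures in the protease values was not tested, and in mixed cells fewer cells of a type and less RNA per cell cannot be told apart.

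Most of the listed genes that differed were lower with the inhibitor. Of the 43 genes, 39 exceeded background on 1 array or both. Lower in SB-OG by 2-fold or more were 20 of the 39 (51.3%), against a background of 13.0% among all 12499 genes above background. At least 2-fold higher were 5 (12.8%), against a background of 12.4%. The remaining 14 lay within 2-fold by the calculated differences. Among these, MMP9, MMP24, TIMP4 and ADAMTS4 were under background on 1 array, so their differences may be larger. The median log2 difference of the 39 genes was -1.20, and that of all genes above background was -0.02. Among the 32 listed genes above background on both arrays, 17 were lower by 2-fold or more and 5 higher, against backgrounds of 12.3% and 10.8% for all such genes. Counted by probe set, 40 of 78 above background were at least 2-fold lower and 9 higher, against backgrounds of 12.0% and 12.7%. SERPINE2 was the furthest below control-OG and PLAU the furthest above.

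**Figure D1:**
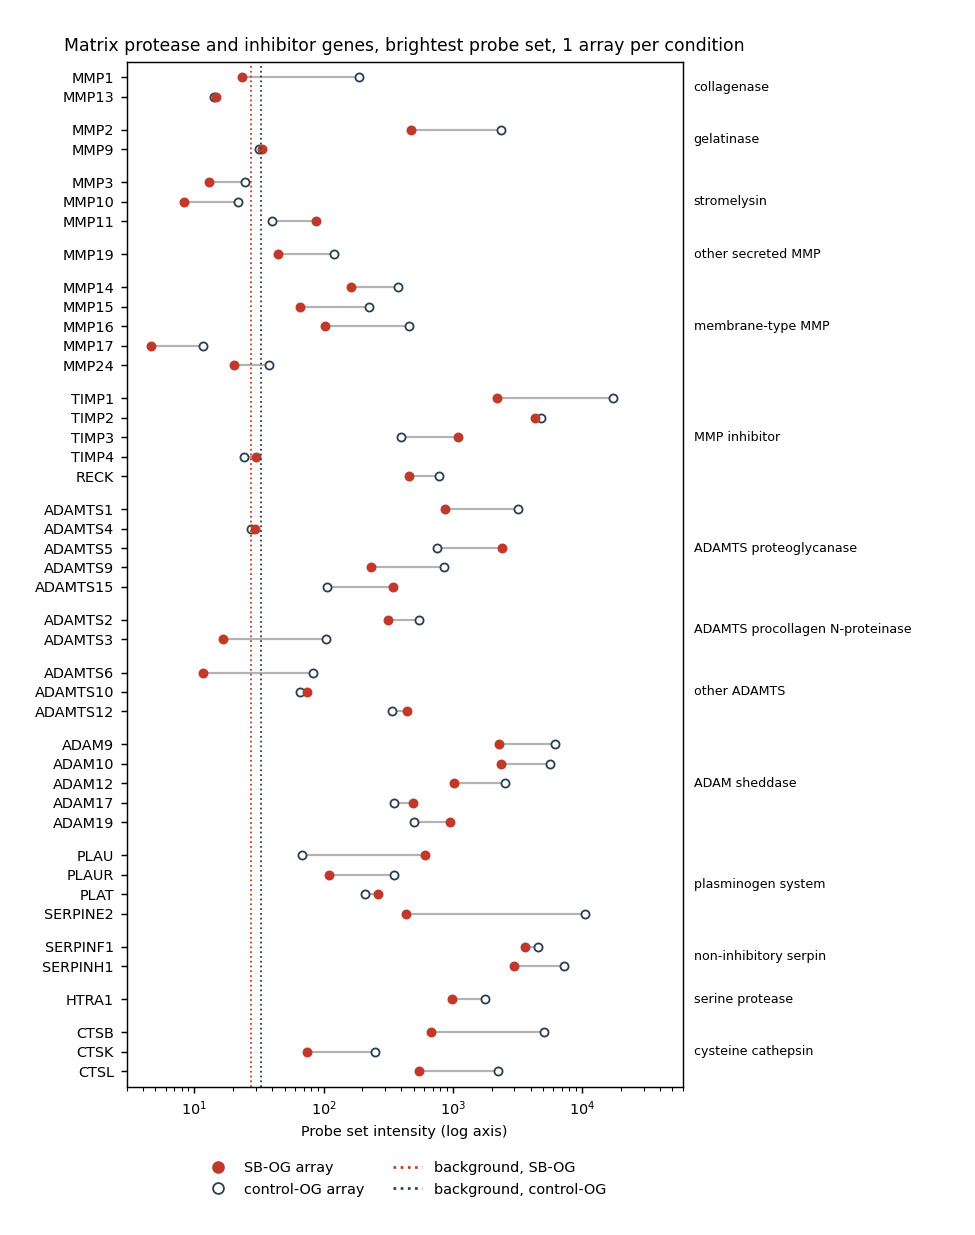
Intensity of the brightest probe set (log axis) of each of the 43 genes on the SB-OG array (filled points) and the control-OG array (open points), by class, with 1 array per condition. Dotted lines mark the background levels of 27.6 (SB-OG) and 32.6 (control-OG). TIMP1, SERPINE2, MMP2 and the 3 cathepsins lie far lower on SB-OG, and PLAU, ADAMTS5, ADAMTS15 and TIMP3 lie higher.

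The plasminogen system held the widest differences in both directions. SERPINE2, a serpin that inhibits thrombin, urokinase and tissue plasminogen activator, had an intensity of 433 on SB-OG and 10537 on control-OG, 24.4-fold lower. It ranked 47 from the lowest difference among the 12499 genes above background. Its other probe set was dim, at 10.5 on SB-OG and 49.6 on control-OG, and gave at least 1.80-fold lower. PLAU, the urokinase that SERPINE2 inhibits, stood at 615 on SB-OG and 68.7 on control-OG, 8.95-fold higher, and its other probe set at 468 on SB-OG and 44.7 on control-OG. By both probe sets the enzyme gene was thus higher where its inhibitor gene was lower, and PLAU ranked 241 from the highest difference. PLAUR, the receptor that holds urokinase on the cell surface, went the other way from its ligand. It had 109 on SB-OG and 350 on control-OG by its brightest probe set, 3.19-fold lower, and its other probe sets gave 80.8 and 32.8 on SB-OG against 362 and 263 on control-OG. PLAT, the other plasminogen activator, lay within 2-fold, at 264 on SB-OG and 208 on control-OG.

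The promoters of PLAU, PLAUR and SERPINE2 are shown because enzyme, receptor and inhibitor differed in opposite directions: the 250 bases before the most upstream start listed by RefSeq (GRCh38.p14), 5′ to 3′. Capitals mark exact matches, on either strand, to the AP-1 motif TGANTCA, the E-box CAGCTG preferred by myogenic factors, the TATA box TATAAA or the SMAD palindrome GTCTAGAC. Both TIMP1 and TIMP3 follow for the same reason, as inhibitors that differed in opposite directions.
PLAU, chr10:73910360-73910609, plus strand: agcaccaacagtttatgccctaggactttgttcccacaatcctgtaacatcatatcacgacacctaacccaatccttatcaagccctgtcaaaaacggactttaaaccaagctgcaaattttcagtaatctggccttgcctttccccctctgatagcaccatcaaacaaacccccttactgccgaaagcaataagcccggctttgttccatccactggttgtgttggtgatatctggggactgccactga
PLAUR, chr19:43670170-43670419, minus strand: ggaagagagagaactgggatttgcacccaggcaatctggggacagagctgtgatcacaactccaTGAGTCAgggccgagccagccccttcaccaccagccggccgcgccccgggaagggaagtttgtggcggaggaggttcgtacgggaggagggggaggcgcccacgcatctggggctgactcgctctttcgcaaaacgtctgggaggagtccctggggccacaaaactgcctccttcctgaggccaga
SERPINE2, chr2:224038641-224038890, minus strand: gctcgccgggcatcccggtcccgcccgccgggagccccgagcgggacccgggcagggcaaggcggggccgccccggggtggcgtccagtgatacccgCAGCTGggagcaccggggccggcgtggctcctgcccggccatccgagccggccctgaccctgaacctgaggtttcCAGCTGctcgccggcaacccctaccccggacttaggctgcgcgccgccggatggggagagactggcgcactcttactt
TIMP1, chrX:47582186-47582435, plus strand: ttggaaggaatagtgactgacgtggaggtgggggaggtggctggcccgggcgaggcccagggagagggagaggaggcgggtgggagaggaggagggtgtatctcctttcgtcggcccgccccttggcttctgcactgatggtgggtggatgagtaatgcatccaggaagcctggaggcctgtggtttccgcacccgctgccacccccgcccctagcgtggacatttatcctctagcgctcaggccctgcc
TIMP3, chr22:32801455-32801704, plus strand: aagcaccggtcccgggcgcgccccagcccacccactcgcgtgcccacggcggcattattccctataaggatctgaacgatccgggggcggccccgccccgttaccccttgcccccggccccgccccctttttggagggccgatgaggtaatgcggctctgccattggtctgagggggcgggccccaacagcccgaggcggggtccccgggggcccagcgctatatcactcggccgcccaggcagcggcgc

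PLAUR holds 1 AP-1 match, from 186 to 180 bases before the start, and SERPINE2 holds the E-box at 153 and again at 78 bases before it. None of the 4 motifs was matched in the windows of PLAU, TIMP1 and TIMP3. RefSeq promoters were listed for 24 of the 43 genes. AP-1 was matched in 3 of these 24 (MMP10, ADAMTS12 and PLAUR) and in 6.57% of all 27305 promoters of that length. The E-box was matched in 3 of 24 (ADAMTS12, SERPINE2 and CTSL) and in 13.8% of all, and in ADAMTS12 it overlaps the AP-1 match. TATAAA was matched in 2 of 24 (MMP10 and ADAMTS10) and in 11.2% of all, and the SMAD palindrome in none of 24 and in 0.183% of all. The GC content of the window was 46.8% for PLAU, 63.2% for PLAUR and 75.2% for SERPINE2.

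Of the MMPs, 9 of 13 exceeded background, 6 of them lower in SB-OG by 2-fold or more (66.7%, background 13.0%) and 1 higher (11.1%, near the background of 12.4%). MMP2, the gelatinase that cuts basement membrane collagen and denatured collagen, had 478 on SB-OG and 2373 on control-OG, 4.97-fold lower. Its other probe set above background was dim, at 17.5 on SB-OG and 38.2 on control-OG, at least 1.38-fold lower. MMP1, the interstitial collagenase that cuts fibrillar collagen, was at 23.4 on SB-OG, under background, and 188 on control-OG, at least 6.83-fold lower. MMP19, another secreted MMP, was at 44.3 on SB-OG and 121 on control-OG, 2.72-fold lower. The other gelatinase, MMP9, a marker of leukocytes and osteoclasts, was near background on both arrays, at 33.5 on SB-OG and 31.5 on control-OG. The higher member was MMP11, a stromelysin of stromal cells, at 87.2 on SB-OG and 40.1 on control-OG, 2.18-fold. That rests on 1 of its 4 probe sets, the others being under background on both arrays. MMP3, MMP10, MMP13 and MMP17 were under background on both arrays, with intensities from 4.61 to 14.7 on SB-OG and from 11.6 to 24.5 on control-OG.

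Membrane-type MMPs are anchored at the cell surface. Of the 4 above background, 3 were at least 2-fold lower (background 13.0%) and none higher (background 12.4%), counts of few genes. MMP14, the main activator of the MMP2 precursor, had 164 on SB-OG and 377 on control-OG by its brightest probe set, 2.29-fold lower. Its other 3 probe sets gave 95.6, 48.5 and 58.6 on SB-OG against 210, 163 and 129 on control-OG. All 4 probe sets of MMP14 were thus lower on SB-OG, by log2 differences of -1.74 to -1.14. MMP16, which can also activate MMP2, had 103 on SB-OG and 460 on control-OG, 4.46-fold lower, and a probe set at 21.9 on SB-OG and 200 on control-OG. MMP15 had 65.3 on SB-OG and 226 on control-OG, 3.46-fold lower. MMP24 had 20.3 on SB-OG and 38.0 on control-OG, at least 1.38-fold lower, and its other probe set gave at least 2.39-fold, so its call depends on the probe set.

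The inhibitors of MMPs divided. TIMP1, an inhibitor secreted by stromal cells, had 2201 on SB-OG and 17278 on control-OG, 7.85-fold lower, and ranked 209 from the lowest difference of all genes. TIMP2, which both inhibits MMP2 and takes part in its activation by MMP14, was at 4342 on SB-OG and 4825 on control-OG, a log2 difference of -0.15. Its 3 probe sets ranged from -0.58 to -0.13. The TIMP2 difference lay close to that of the median gene, while its partners MMP2 and MMP14 were lower. TIMP3, the inhibitor that binds to the matrix and also blocks ADAM17 and ADAMTS proteases, had 1106 on SB-OG and 396 on control-OG, 2.79-fold higher. Its other 3 probe sets gave 282, 202 and 141 on SB-OG against 210, 155 and 95.7 on control-OG, differences of 0.38 to 0.56 that are within 2-fold. TIMP4 was near background, at 30.2 on SB-OG and 24.2 on control-OG. RECK, a membrane-anchored inhibitor of MMPs, had 459 on SB-OG and 776 on control-OG, 1.69-fold lower, and its 4 probe sets above background ranged from -1.35 to 0.42.

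**Figure D2:**
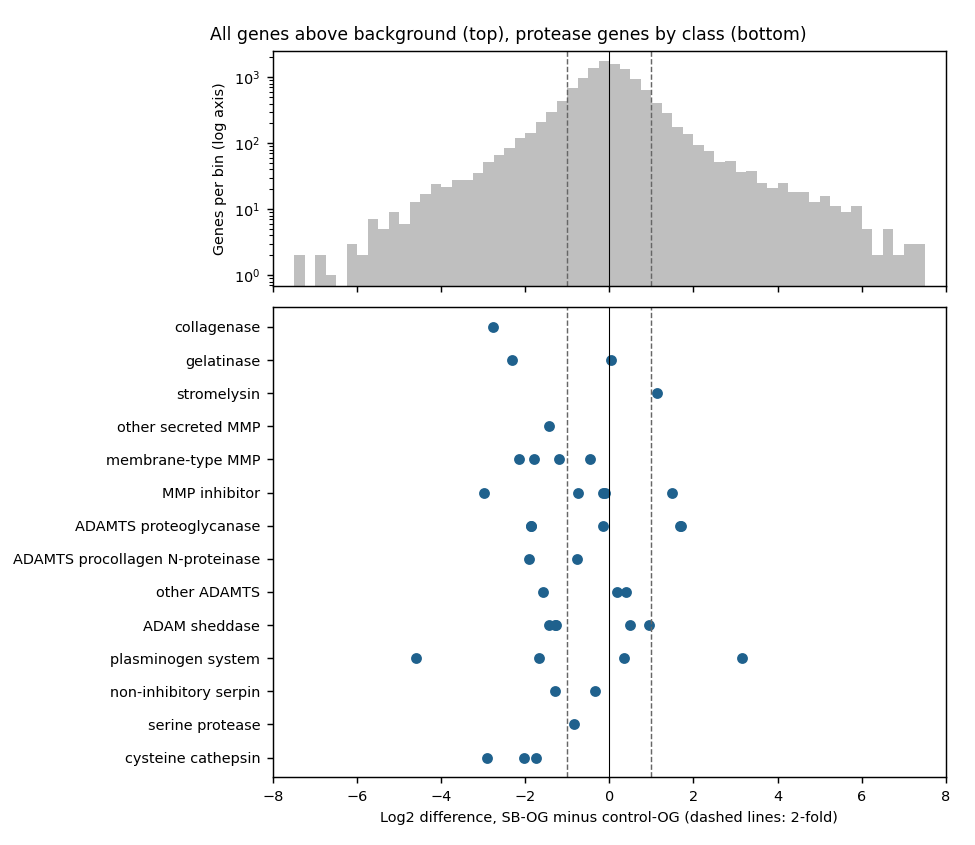
Upper panel, number of genes per 0.25 log2 bin (log axis) for the 12499 genes above background on at least 1 array. Lower panel, log2 difference (SB-OG minus control-OG) of each of the 39 listed genes above background, by class, with 2-fold marked by dashed lines. The 3 cysteine cathepsins are lower by 2-fold or more, and the proteoglycan-cutting ADAMTS genes fall on both sides.

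Of the 10 ADAMTS genes, 4 were lower by 2-fold or more (background 13.0%) and 2 higher (background 12.4%), counts of few genes. ADAMTS5, the main aggrecanase of mouse cartilage, had 2407 on SB-OG and 753 on control-OG, 3.20-fold higher, and its 4 probe sets gave log2 differences from 1.52 to 1.96. ADAMTS15, which cuts versican and aggrecan, had 346 on SB-OG and 106 on control-OG, 3.26-fold higher, by the 1 probe set above background. The 2 genes of the same class that were lower were ADAMTS1 and ADAMTS9, which cut the same proteoglycans. ADAMTS1 had 876 on SB-OG and 3212 on control-OG, 3.67-fold lower, and 226 on SB-OG and 676 on control-OG by its other probe set. ADAMTS9 had 232 on SB-OG and 849 on control-OG, 3.66-fold lower, and 118 on SB-OG and 360 on control-OG by its next brightest. ADAMTS4, an aggrecanase of inflamed cartilage, was near background, at 29.4 on SB-OG and 27.7 on control-OG. The class therefore held differences of similar size in opposite directions, each repeated by a second probe set except for ADAMTS15.

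Procollagen N-proteinases remove the amino-terminal propeptide before collagen forms fibrils. ADAMTS3 was at 16.8 on SB-OG and 104 on control-OG, at least 3.78-fold lower, and ADAMTS2 was at 316 on SB-OG and 543 on control-OG, 1.72-fold lower. ADAMTS6 was at 11.7 on SB-OG and 83.1 on control-OG, at least 3.01-fold lower. Its close relative ADAMTS10, which acts on fibrillin microfibrils, was at 75.1 on SB-OG and 66.1 on control-OG. ADAMTS12 was at 444 on SB-OG and 336 on control-OG, within 2-fold.

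**Figure D3:**
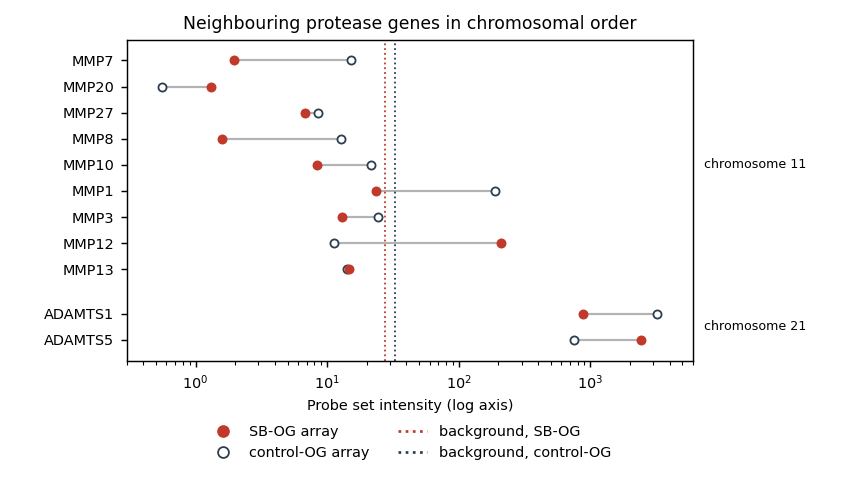
Intensity (log axis) of neighbouring protease genes in chromosomal order, on the SB-OG array (filled) and the control-OG array (open), with background levels dotted. Of the 9 MMP genes on chromosome 11, MMP1 is above background on control-OG and MMP12 on SB-OG, and ADAMTS1 and ADAMTS5 on chromosome 21 differ in opposite directions.

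ADAMTS1 and ADAMTS5 are next to each other among protein-coding genes on chromosome 21, so the neighbours differed in opposite directions. A similar contrast was seen in the run of 9 MMP genes on chromosome 11, in which 7 were under background on both arrays. MMP1 was above it on control-OG only. MMP12, the macrophage elastase, which is not among the 43 genes, was at 211 on SB-OG and 11.3 on control-OG, at least 6.46-fold higher. MMP1 and MMP12 are separated in this run by MMP3 alone.

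Of the 5 ADAM genes, 3 were at least 2-fold lower (background 13.0%) and none higher (background 12.4%), counts of few genes. ADAM9, a broad sheddase, had 2293 on SB-OG and 6174 on control-OG, 2.69-fold lower, and 411 on SB-OG and 1210 on control-OG by its next probe set. ADAM10, which cuts Notch receptors and cadherins, had 2374 on SB-OG and 5681 on control-OG, 2.39-fold lower, with 3 probe sets from -1.99 to -1.23. ADAM17, the sheddase of TNF and EGF receptor ligands, was not lower by its brightest probe set, at 497 on SB-OG and 352 on control-OG, 1.41-fold higher. ADAM12 and ADAM19, the meltrins, which were first described in myoblasts and other mesenchymal cells, differed from each other. ADAM12 had 1030 on SB-OG and 2530 on control-OG, 2.46-fold lower. Its next brightest probe set, at 1058 on SB-OG and 1864 on control-OG, lay within 2-fold. The probe sets of ADAM12 ranged from -1.42 to 0.02, and both ends came from dim probe sets under background on 1 array. ADAM19 had 960 on SB-OG and 501 on control-OG, 1.92-fold higher and just within 2-fold.

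The cysteine cathepsins are lysosomal proteases that can also be secreted. All 3 were at least 2-fold lower (background 13.0%), a count of few genes. CTSB had 674 on SB-OG and 5085 on control-OG, 7.54-fold lower, and ranked 217 from the lowest difference of all genes. Its other 4 probe sets gave 372, 245, 164 and 77.4 on SB-OG against 3839, 1508, 1691 and 702 on control-OG. The 5 probe sets of CTSB lay between -3.37 and -2.62, a narrow range beside its size. CTSL had 546 on SB-OG and 2242 on control-OG, 4.11-fold lower. CTSK, the collagen-degrading cathepsin of osteoclasts that fibroblasts also make, had 74.8 on SB-OG and 250 on control-OG, 3.34-fold lower. Of the macrophage and osteoclast markers read, CSF1R, PTPRC, AIF1, MRC1 and ITGAM were under background on both arrays by their brightest probe sets, and CD14 was above it on control-OG only. The part of such cells in the cathepsin values was not tested.

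The remaining genes were SERPINH1, SERPINF1 and HTRA1. SERPINH1, a serpin that does not inhibit proteases but folds collagen in the endoplasmic reticulum, had 2976 on SB-OG and 7270 on control-OG, 2.44-fold lower. SERPINF1, a secreted serpin without protease inhibition that acts against blood vessel growth, was within 2-fold, at 3592 on SB-OG and 4544 on control-OG. HTRA1, a secreted serine protease known to cut matrix proteins, was at 996 on SB-OG and 1783 on control-OG, 1.79-fold lower. Taken by function, 16 of 30 proteases above background were at least 2-fold lower (53.3%, background 13.0%) and 4 higher (13.3%, near the background of 12.4%). Of the 6 inhibitors (4 TIMPs, RECK and SERPINE2), 2 were lower and 1 higher, numbers too small to set against those shares.

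**Figure D4:**
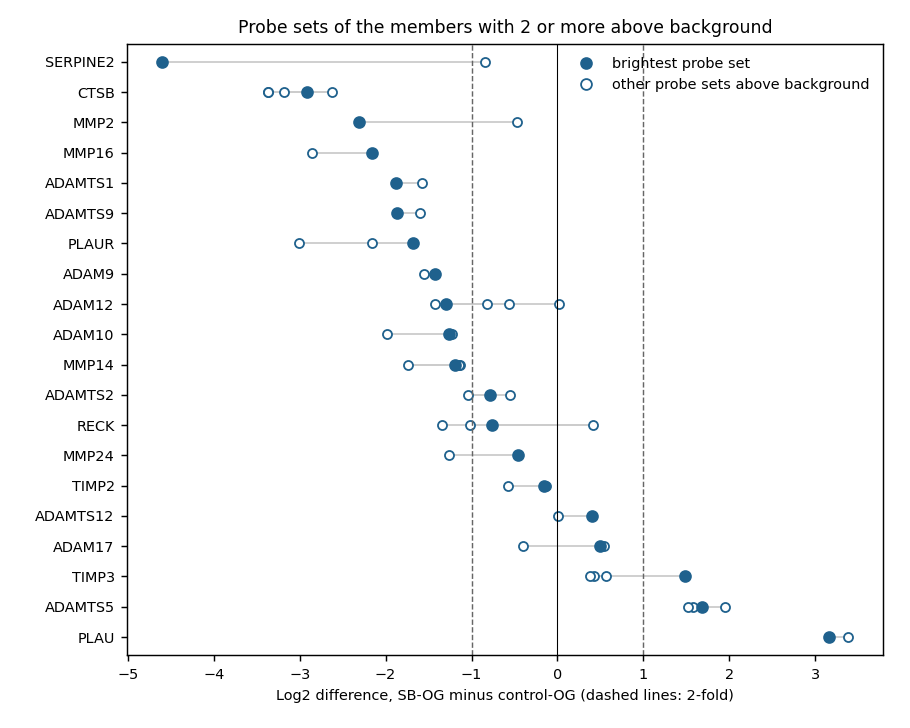
Log2 difference (SB-OG minus control-OG) of each probe set above background for the 20 genes with 2 or more of them, the brightest filled and the others open, with 2-fold marked by dashed lines. Values at the background level on 1 array are lower bounds in size. CTSB, MMP14, ADAMTS5 and PLAU are narrow, and SERPINE2, MMP2 and TIMP3 have probe sets well nearer to 0 than the brightest.

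Of the 20 listed genes with several probe sets above background, 17 had them all on the same side of 0. The other 3 were RECK, ADAM12 and ADAM17. Of the 25 genes at least 2-fold apart, 6 that were lower, MMP14, MMP19, ADAM9, ADAM10, ADAM12 and SERPINH1, came within 2-fold when SB-OG was rescaled on the hybridisation controls. That scaling raised the SB-OG array by 0.47 on the log2 scale, left 14 of 39 listed genes lower against a background of 7.27%, and brought the number higher to 6 against a background of 24.1%. No listed gene at least 2-fold apart changed sign under those of the 10 other settings of the values and probe sets that gave it a value. Several of those settings could not have reversed a sign.

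A wider list of 80 genes of the same systems, set out by family and chosen like the 43 with results of these arrays known, gave 53 above background. Of these, 22 were lower by 2-fold or more (41.5%, background 13.0%) and 7 higher (13.2%, background 12.4%), with a median log2 difference of -0.64. The 6 furthest from 0 were all lower. FAP, a surface peptidase of activated fibroblasts that is also in the fibroblast marker list, had 39.7 on SB-OG and 2030 on control-OG, 51.2-fold lower. DPP4, a related surface peptidase, had 61.9 on SB-OG and 2788 on control-OG, 45.0-fold lower. MME, the surface peptidase neprilysin, had 271 on SB-OG and 5371 on control-OG, 19.8-fold lower. SERPINB9, an intracellular inhibitor of granzyme B, had 79.5 on SB-OG and 1317 on control-OG, 16.6-fold lower. CTSH, a lysosomal aminopeptidase, had 55.7 on SB-OG and 670 on control-OG, 12.0-fold lower. The testican proteoglycan gene SPOCK1 had 159 on SB-OG and 1696 on control-OG, 10.7-fold lower. Probe sets of SERPINB9 ranged from -4.05 to -0.40.

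**Figure D5:**
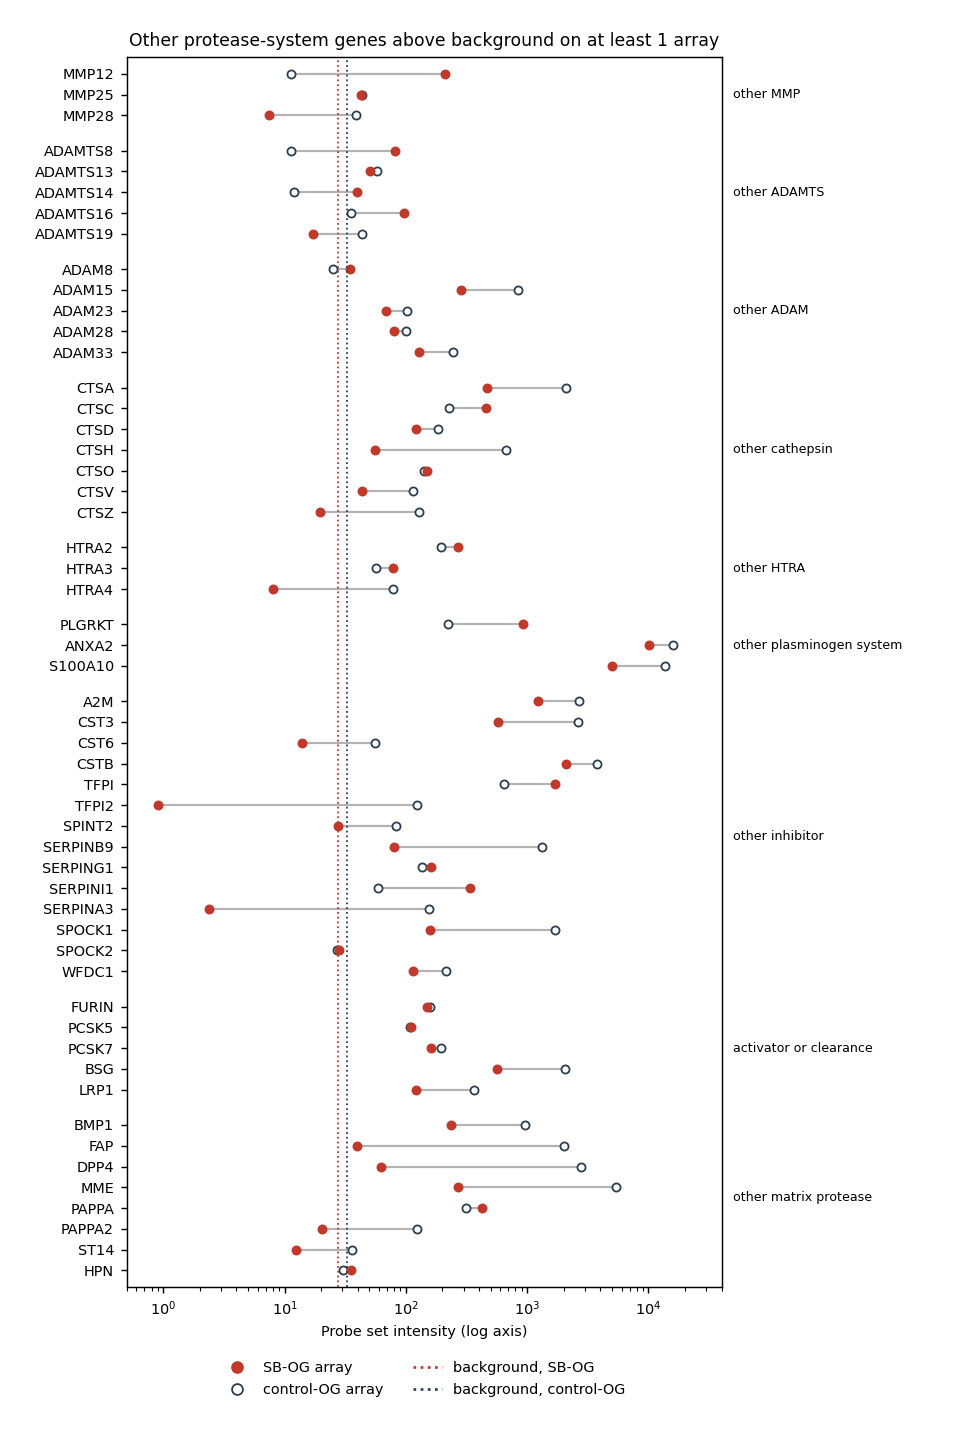
Intensity (log axis) of the brightest probe set of the 53 other protease-system genes above background, on the SB-OG array (filled) and the control-OG array (open), by family, with background levels dotted. FAP, DPP4, MME, SERPINB9, CTSH and SPOCK1 lie far lower on SB-OG, and MMP12, SERPINI1 and PLGRKT lie higher.

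The families of the wider list are small, and differences between their counts were not tested. Against backgrounds of 13.0% lower and 12.4% higher, other cathepsins were at least 2-fold lower for 4 of 7 above background (57.1%: CTSA, CTSH, CTSV and CTSZ) and higher for 1 (14.3%), CTSC. Other protease inhibitors were lower for 8 of 14 (57.1%) and higher for 2 (14.3%), TFPI and SERPINI1, the share higher in both families being near the background. CST3, the secreted inhibitor of cysteine cathepsins, had 570 on SB-OG and 2613 on control-OG, 4.58-fold lower, the same direction as CTSB, CTSK and CTSL, with its other probe sets as near to 0 as -0.27. SERPINI1, an inhibitor of tissue plasminogen activator known from neurons, had 337 on SB-OG and 58.4 on control-OG, 5.78-fold higher. PLGRKT, a plasminogen receptor, had 928 on SB-OG and 223 on control-OG, 4.16-fold higher, while S100A10, another protein that binds plasminogen at the surface, had 4984 on SB-OG and 13706 on control-OG, 2.75-fold lower. BMP1, the procollagen C-proteinase, had 235 on SB-OG and 953 on control-OG, 4.06-fold lower. Other ADAMTS genes were higher for 2 of 5, ADAMTS8 and ADAMTS16, and lower for none. PLG, the plasminogen gene, was under background on both arrays, at 10.2 on SB-OG and 5.33 on control-OG. The genes named in this paragraph, and MMP12, were picked after their values were seen.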

How the data were processed

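RNA of HUES9 outgrowths was read on 1 array for each of 2 conditions, each from 3 mixed samples, grouped by sample title. Frozen cells were extracted with a silica column, per the labels. As deposited, each array has an intensity, on a linear scale, for 54675 probe sets, made by software not given in the sources used here. With 2% of probe sets trimmed at either end, the mean was 150.02 on each array, so the 2 appear to share a scaling target, which would hide a difference in RNA content of the cells. Gene names came from the platform's annotation (2016), with symbols updated by gene ID, and 41091 had 1 gene. The background level came from 172 genes of the olfactory and taste receptor, keratin-associated protein, beta-defensin and late cornified envelope families. With 1 array per condition no test was made, and precision is limited by there being 1 array each. Values on both arrays are given for all listed genes at least 2-fold apart, for family members needed to describe them, and for the 6 largest differences of the wider list. The listed genes, the wider list and the cell type markers were chosen with earlier results of these data known. SERPINB2, SERPINB6, ADAMTS7, CD68, ACP5 and TDGF1 were not analysed here. Gene order and promoters came from RefSeq (GRCh38.p14). The calculation was tested on simulated data, in which only genes well above background were changed. Changes near background or close to 2-fold were not covered by that test. Calculations used pandas 2.3.3 and numpy 2.4.6 in Python 3.11.15, with statsmodels 0.14.6, scipy 1.17.1 and matplotlib 3.10.9.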

Additional observations from a re-analysis of the deposited data

How the results depend on the processing

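Quantile normalization and a lowess correction kept all 25 named genes at least 2-fold apart, in the same direction. Centring and a common floor did so as well, but their shifts were too small to remove any call. Centring adds the same 0.0519 to every log2 difference. A common floor alters only MMP1, ADAMTS3 and ADAMTS6 among the 25 named genes. Leaving out the floor did too, but it can only keep or enlarge these differences, so its outcome was fixed and is no check. Over 10 alternatives and the genes with a value, 197 of 238 differences moved by less than the spread of 0.46 between probe sets, 41 moved by more and none changed sign. Many of the 197 could not have moved that far, so the tally is no measure of stability. Centring shifts all genes alike, and a changed floor leaves genes far above it as they were. A gene with 1 probe set keeps its value when probe sets are averaged or selected. Of the 41, 25 came from scaling on the hybridisation controls. It adds the same 0.4698 to every log2 difference, just over the unrounded spread of 0.4649. All 25 genes therefore had to count as moved, by 1 shared shift rather than gene by gene. Scaling in this way gave a median of -0.73 for the listed genes and raised the median of all genes to 0.45. With that scaling 76.8% of all genes at least 2-fold apart were higher in SB-OG, against 48.9% as deposited. The mean of all probe sets left 2 of 36 listed genes higher, against 11.5% of all genes. It brought MMP2, TIMP3, ADAMTS15 and ADAM12 within 2-fold. The mean takes in probe sets under background, without a floor on each. For MMP2 it includes a probe set at 5.51 on SB-OG and 0.774 on control-OG. For ADAMTS15 it includes a probe set at 5.91 on SB-OG and 4.45 on control-OG. Only 22 of the 25 named genes had a value by that mean, since MMP11, MMP19 and ADAMTS6 fell under background on both arrays. Probe sets without _s_, _x_ or _a_ in the name exist for fewer genes. They left 2 of 26 listed genes higher and 13 lower, against 13.6% and 12.6% of all genes. Of the wider list, 13 of 38 were lower. Only 16 of the 25 named genes had a value above background by such probe sets, PLAU and TIMP3 not among them, and ADAM12 came within 2-fold. At 3-fold, 3 of 39 listed genes were higher and 14 lower, against 6.33% and 6.36% of all genes. Of the wider list, 3 of 53 were higher at 3-fold. A background at the 99th percentile took MMP11, MMP19, ADAMTS3 and ADAMTS6 out of the calls, and a pseudocount of 16 took MMP11. No paired analysis was possible because each condition had 1 array.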
